A study of Mus musculus with 3 samples.

Results

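The endoneurial mesenchymal cells of the injured mouse sciatic nerve were 337 of 1289 cells (26.1%, 95% interval 23.8 to 28.6) in the authors' table of mesenchymal cells from the distal nerve. A cell was counted as endoneurial when its score for 5 endoneurial markers (Sox9, Osr2, Etv1, Apod and Wif1) was above 0 and above its scores for 6 differentiating, 5 epineurial and 5 perineurial markers. Each score was the mean of z-scored log-normalised counts of the set. The other 952 cells of the table comprised 407 differentiating, 253 epineurial and 153 perineurial cells and 139 cells with no score above 0. Because the rule reads the counts of these cells, every comparison between them and the other injured cells is given as a description.

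The cells came from 3 Drop-seq libraries of nerve from adult mice, dissociated with collagenase and trypsin. The injured library with myelin removal beads came from Wildtype CD1 mice, and the injured library sorted by FACS from CD1 and C57BL/6 mice, both from the distal segment 9 days after resection. The uninjured library, also made with beads, came from Wildtype CD1 mice, and of it the table of predicted mesenchymal cells was used. The sources used here do not give the FACS gate, the number of animals or the batches. The same rule, scored within each table, found 179 endoneurial cells among 821 mesenchymal cells of the FACS library (21.8%) and 307 among 880 uninjured cells (34.9%). Each condition is 1 library, so no difference has a replicate check, no test was possible, and all intervals cover counting error only. Injured state and library cannot be told apart, and the 2 injured libraries also differ in isolation and strain.

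Endoneurial fibroblasts lie inside the nerve fascicle, among the axons and Schwann cells, and make the loose collagenous matrix there. Perineurial cells form the barrier sheath around the fascicle, and epineurial fibroblasts make the outer connective tissue. After a nerve is cut, axons of the distal segment degenerate, myelin is cleared by Schwann cells and macrophages, and mesenchymal cells are known to take part in rebuilding the tissue.

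The endoneurial cells of the injured beads library held 1789310 unique molecular identifiers (UMIs, 1 per captured transcript), with a median of 4965 UMIs and 2042 genes per cell. The other injured cells had a median of 2374 UMIs and 1252.5 genes. FACS endoneurial cells had a median of 6102 UMIs and uninjured endoneurial cells 2480. Thinned to 1000 UMIs per cell, the medians were 621 genes in injured endoneurial cells and 574 in uninjured endoneurial cells. No doublet caller was run, and doublets may remain. A single cell barcode was shared by the injured beads and FACS libraries, and none by the endoneurial cells.

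The label rests on 5 markers, which the rule used, so their higher levels follow from the choice of cells and are no separate check. Sox9 encodes a transcription factor best known from cartilage and from neural crest. It stood at 281 CPM (the gene's UMIs per 1e+06 UMIs of the pooled cells) in injured endoneurial cells and 69.7 CPM in the other injured cells. The transcription factor gene Osr2 stood at 206 and 42.9 CPM, and Etv1, an ETS factor gene, at 83.3 and 5.75 CPM. Wif1, encoding a secreted Wnt inhibitor, had 2189 CPM in endoneurial and 30.4 CPM in other injured cells. All 337 cells held an Apod UMI, 291 a Wif1 UMI, 186 Sox9, 157 Osr2 and 97 Etv1. All 5 markers were detected in 33 cells, 4 in 99, 3 in 98, 2 in 106 and 1 in 1 cell. Thus detection in single cells rested mostly on Apod and Wif1. Cthrc1, a marker in the differentiating set, ran against the label, with 1811 CPM in endoneurial and 915 CPM in other injured cells.

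The cells just inside the limits of the rule cleared them by 0.00134 and 0.0149 of a z-score, and those just outside stood at -0.00495 and -0.0107 against them. The limit lay within 0.25 of the score of 37 endoneurial and 69 other cells. The median margin of the endoneurial cells was 0.949, and 162 of them had a margin of at least 1.

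**Figure D1:**
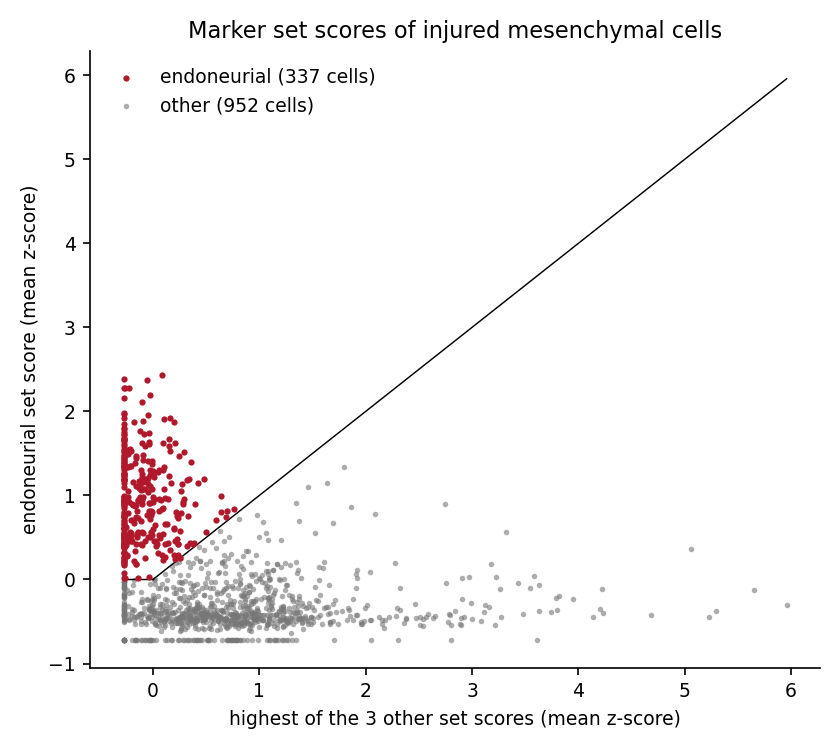
Endoneurial marker score of each of 1289 injured mesenchymal cells (vertical axis, mean z-score) against the highest of its other 3 set scores (horizontal axis, mean z-score), with lines at the limits of the rule. Of the 337 endoneurial cells (red), 162 have a margin of at least 1, while 37 of them and 69 of the 952 other cells (grey) lie within 0.25 of the lines.

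Apod, encoding the secreted lipid carrier apolipoprotein D (chr16:31296192-31314808 on GRCm38), dominated these cells. It supplied 11.7% of all UMIs in injured endoneurial cells and 0.657% in the other injured cells. In the FACS library it took 8.82% in endoneurial cells and 0.446% in the other mesenchymal cells, and in uninjured nerve 6.90% in endoneurial cells and 1.83% in the others. Its share per injured endoneurial cell ran from 0.0654% to 31.3%, with a median of 11.8% and quartiles of 7.0% and 15.1%. The median was 9.07% in FACS endoneurial cells and 6.64% in uninjured endoneurial cells. Cells with under 1% Apod numbered 25 of 337 in the injured beads library, 36 of 179 in the FACS library and 9 of 307 in uninjured nerve. B cells of the same beads library, which are not known to make Apod, had a median of 0.119% and a range of 0 to 35.2%. Free RNA in droplets was not measured, and its part in low shares was not tested.

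**Figure D2:**
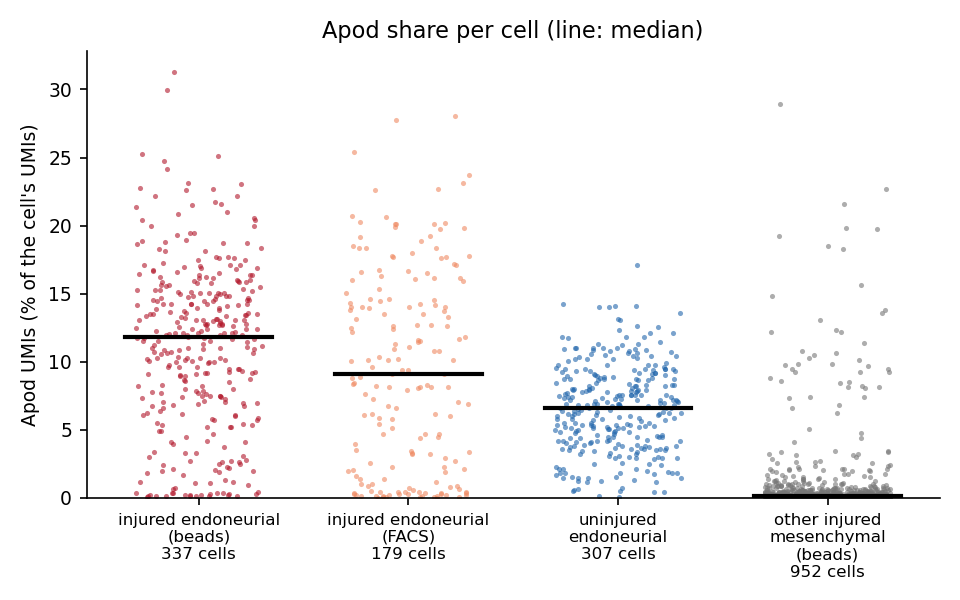
Apod UMIs as a percentage of each cell's UMIs (points, 1 per cell) with the median of each pool (black line). Injured endoneurial cells of the beads library have a median of 11.8%, FACS endoneurial cells 9.07%, uninjured endoneurial cells 6.64% and other injured cells 0.162%.

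In the injured beads library, 248 of 4096 genes (6.05%) were at least 2-fold higher in endoneurial than in other injured cells, and 372 (9.08%) at least 2-fold lower. These shares are over all genes with at least 50 CPM in the higher pool, the limit used throughout. The large Apod share lowers every other gene's CPM in the endoneurial pool, and the median log2 ratio of all tested genes was -0.27. With DESeq2 size factors, which shift each log2 ratio up by 0.28, the same genes split into 365 higher and 236 lower. With TMM factors the split was 364 and 237, and with Apod left out of the totals 342 and 287. Log2 ratios below use total UMIs and are best read against that median.

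The genes that stood furthest above the other injured cells encoded matrix proteins, protease inhibitors, a chemokine and proteins best known from neurons or liver. Col28a1, encoding the minor collagen XXVIII, which is known from peripheral nerve, had 859.5 CPM in endoneurial and 19.3 CPM in other injured cells (log2 5.48, 95% interval 5.10 to 5.89). It had 427 and 34 CPM in the FACS pools and 124 and 30.5 CPM in the uninjured pools. Col26a1, encoding collagen XXVI, stood at 611 and 26 CPM in the injured beads library, 474 and 23 CPM in the FACS library, and 120.1 and 33.5 CPM in uninjured nerve. Both collagen genes were thus higher in endoneurial cells of every library, and highest after injury. Col2a1, encoding the main collagen of cartilage, was at 108 and 1.35 CPM (log2 6.32, 95% interval 4.94 to 8.21), with 81.6 and 17.5 CPM in uninjured nerve. The injured and uninjured endoneurial pools were within 2-fold of each other.

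A2m, encoding the broad protease inhibitor alpha-2-macroglobulin, had the highest ratio, with 139 CPM in endoneurial and 1.01 CPM in other injured cells (log2 7.10, 95% interval 5.54 to 9.39). Uninjured endoneurial cells held more of it, 429 CPM, against 83.1 CPM in other uninjured cells. Cst6, encoding a cysteine protease inhibitor of the cystatin family, stood at 136 and 3.72 CPM, and Fetub, encoding the fetuin-B protease inhibitor, at 96.7 and 2.37 CPM. Fetub was low in uninjured nerve, at 8.16 CPM in endoneurial and 1.52 CPM in other cells. Trf, encoding the iron carrier transferrin, was abundant at 2823 and 72.7 CPM, with 1733 and 50.1 CPM in the FACS library and 784 and 156 CPM in uninjured nerve.

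Ccl9, encoding a CC chemokine that attracts myeloid cells (chr11:83572919-83578636), had 1719 CPM in endoneurial and 33.8 CPM in other injured cells (log2 5.67, 95% interval 5.38 to 5.97). The FACS pools had 945 and 32.9 CPM and the uninjured pools 115 and 22.1 CPM. Macrophages and dendritic cells of the beads library had 493 CPM. The summed macrophage and dendritic cell markers were at 341 CPM in endoneurial and 422 CPM in other injured cells, and their part in the Ccl9 level was not tested. Saa1, encoding an acute-phase lipid carrier, stood at 158 and 5.75 CPM, but its near-identical neighbour Saa2 can share its reads, so its level is uncertain.

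Several of the highest genes are better known from neurons and endocrine cells. Cspg5, encoding the proteoglycan neuroglycan C, had 149.8 CPM in endoneurial and 4.06 CPM in other injured cells, with 7.0 and 3.05 CPM in uninjured nerve. Gria1, encoding an AMPA glutamate receptor subunit, had 151 and 4.73 CPM after injury and 4.67 and 2.29 CPM in uninjured nerve. Gcg, encoding proglucagon, had 177 and 6.76 CPM, with 93.9 and 3.43 CPM in the FACS pools. Pcsk1n, encoding an inhibitor of a prohormone convertase, had 61.5 and 1.69 CPM and was the weakest of the 15 in the FACS library, at 14 and 4.12 CPM. Its UMIs came from 19 of 337 endoneurial cells, and it had 17.2 CPM in the 93 cells nearest the limits of the rule, against 76.5 CPM in the 162 clearest ones. Nipal1, a magnesium transporter gene, had 293 and 9.47 CPM, and Alpl, encoding tissue-nonspecific alkaline phosphatase, 60.9 and 2.71 CPM. Each of these 6 genes was also at least 2-fold higher in endoneurial cells of the FACS library.

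**Figure D3:**
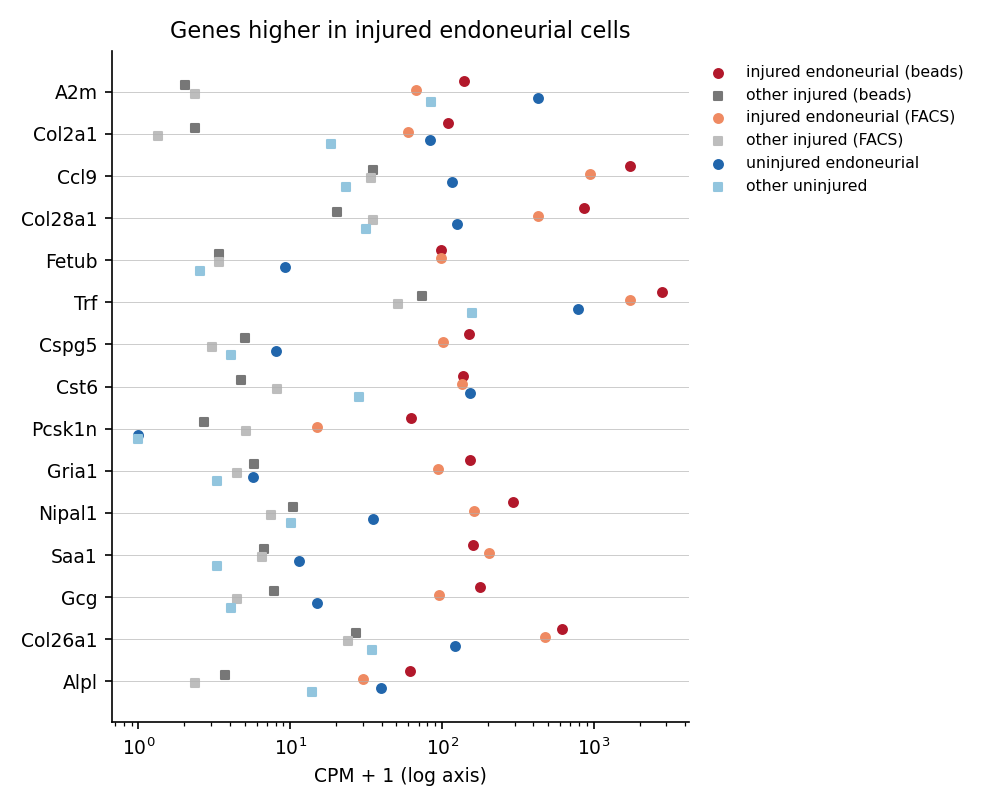
CPM plus 1 (log axis) of the 15 genes with the highest ratio of endoneurial to other injured cells, in 6 pools from 3 libraries (circles, endoneurial cells; squares, other mesenchymal cells). In both injured libraries every gene is higher in endoneurial cells, and A2m is the gene whose uninjured endoneurial level (429 CPM) lies furthest above its injured one (139 CPM).

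Among the genes furthest below the other injured cells were several known from tendon, cartilage and other dense connective tissue. Tnmd, encoding the tendon protein tenomodulin, had 0.559 CPM in endoneurial and 53.4 CPM in other injured cells, on 1 and 158 UMIs (log2 -6.58, 95% interval -11.89 to -4.08). Comp, encoding cartilage oligomeric matrix protein, had 1.12 and 90.3 CPM on 2 and 267 UMIs (log2 -6.34, 95% interval -9.39 to -4.47). Fmod, encoding the collagen-binding fibromodulin, had 0 UMIs in endoneurial cells and 55.5 CPM in other injured cells, at least 33.1-fold lower against 3 UMIs in the pool. Dpt, encoding dermatopontin, had 38.6 and 1159 CPM, and Fst, encoding the activin antagonist follistatin, 4.47 and 157 CPM. Dkk2, encoding a Wnt antagonist, had 5.03 and 181 CPM. The other 4 genes of the 10 lowest were P4ha3, which encodes a collagen prolyl hydroxylase subunit, C1qtnf3, Atp1b1 and Egfl6, with 0.559 to 2.24 CPM in endoneurial and 51.1 to 100.4 CPM in other injured cells. All 10 were also lower in endoneurial cells of the FACS library, from 0 UMIs of C1qtnf3 and Atp1b1 to 64.1 CPM of Dpt.

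The FACS library, whose cells the rule for the beads library did not read, gave the same kind of split when its own cells were scored. There, 186 of 3863 genes (4.81%) were at least 2-fold higher in endoneurial cells and 208 (5.38%) at least 2-fold lower. With the marker genes of the rule left out, 243 genes were higher in the beads library and 181 in the FACS library, and 154 were higher in both. These were 63.4% of the beads list and 85.1% of the FACS list. Of all genes tested in FACS, rule genes left out, 4.71% were higher there. All 243 lay above 0 in the FACS library, where 37.8% of all 3863 tested genes did. Of 360 genes lower in the beads library, 357 were measured by FACS and 348 lay below 0. Those lower in both numbered 156, or 43.3% of the beads list and 78.8% of the FACS list of 198. Of all genes tested in FACS, rule genes left out, 5.15% were lower there. No gene of either list lay 2-fold in the opposite direction. The same marker set chose the cells in both libraries, so the lists are not independent.

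**Figure D4:**
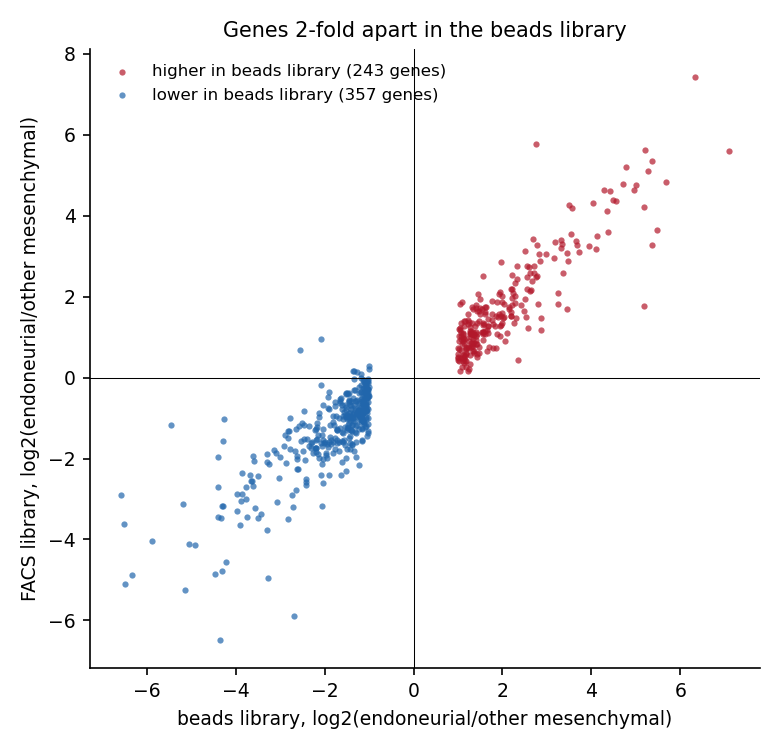
Log2 ratio of endoneurial to other mesenchymal cells in the FACS library (vertical axis) against the beads library (horizontal axis) for genes at least 2-fold apart in the beads library, rule genes left out. All 243 genes higher in the beads library (red) lie above 0 in the FACS library, and 348 of 357 genes lower in it (blue) lie below 0.

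Part of this gene set was already higher in endoneurial cells of uninjured nerve, where 231 of 3715 genes (6.22%) were at least 2-fold higher than in other uninjured cells and 388 (10.4%) lower. Without the rule genes, 88 genes were higher in both, or 36.2% of the injured and 38.8% of the uninjured list. Of all genes tested in uninjured nerve, rule genes left out, 6.14% were higher in endoneurial than in other uninjured cells. Of the 236 injured-list genes measured in uninjured nerve, 190 lay in the same direction and 16 were at least 2-fold the other way. Of 238 genes higher in injured endoneurial cells than in other injured cells, with predicted genes and the like left out, 102 were also at least 2-fold higher than in uninjured endoneurial cells. A further 24 were at least 2-fold lower than there, and 112 lay within 2-fold.

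By gene list, acute-phase and innate defence genes leaned towards the endoneurial cells. List counts against other injured cells, here and below, stand beside 6.05% of all genes higher and 9.08% lower. Of 19 such genes with at least 50 CPM, 10 were at least 2-fold higher and 0 lower than in other injured cells, and the list's median log2 ratio was 1.23, against -0.28 for all genes with at least 10 CPM. Cp, encoding the copper-carrying ferroxidase ceruloplasmin, had 2923 CPM in endoneurial and 289 CPM in other injured cells. Steap4, encoding a metalloreductase, had 896 and 169 CPM, and Ptx3, encoding a soluble pattern recognition molecule, 519.8 and 141 CPM. Nfkbia, encoding an inhibitor of NF-kappa-B that the factor itself induces, had 1115 and 399 CPM. In the FACS library Cp stood at log2 3.30, Steap4 at 1.79, Ptx3 at 1.07 and Nfkbia at 0.77.

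Chemokine genes went both ways. Of 16 chemokine and cytokine genes, 7 were higher and 3 lower in endoneurial than in other injured cells (list median log2 0.89). Ccl2, whose product recruits monocytes, had 3164 CPM in endoneurial and 205 CPM in other injured cells. Ccl7, encoding another monocyte attractant, had 1394 and 205 CPM, and Ccl11, encoding the eosinophil attractant eotaxin, 1697 and 153 CPM. Cxcl1, encoding a neutrophil attractant, had 1680.0 and 370.0 CPM, and Cxcl2 was also higher. Genes of lymphocyte attractants lay on both sides. Cxcl10 was higher, at 82.7 and 16.2 CPM, while Cxcl9, at 7.27 and 71.7 CPM, and Cxcl13, at 8.94 and 57.8 CPM, were lower, as was Cxcl14, at 231 and 655 CPM. In the FACS library Cxcl10 was within 2-fold (log2 0.44), as was Cxcl14 (log2 -0.97).

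Matrix genes went both ways. Of 23 collagen genes, 6 were higher and 6 lower, with Col11a1, a fibril-forming minor collagen, at 389 CPM in endoneurial and 59.5 CPM in other injured cells and Col15a1, of basement membrane zones, at 1091 and 463 CPM. The main fibrillar collagen gene Col3a1 was lower, at 10011 and 20264 CPM, and so was Col12a1, encoding a fibril-associated collagen, at 17.3 and 362 CPM. Col3a1, Col1a2 and Col5a2 were close to the 2-fold limit (log2 -1.02, -1.12 and -1.27) and lay within 2-fold with the size factor shift of 0.28, which left 7 collagen genes higher and 3 lower. That shift also raised the number of all genes called higher and reduced the number called lower, as given above. Of 21 proteoglycan genes, 8 were higher and 6 lower. Epyc, encoding the small leucine-rich protein epiphycan, had 1164 and 67.3 CPM, Lum, encoding lumican, 10376 and 1678 CPM, and Dcn, encoding decorin, 20663 and 9553 CPM. Of 44 matricellular and other matrix genes, 9 were higher and 15 lower, beside 6.05% and 9.08% of all genes. Matn4, encoding matrilin-4, had 310.2 and 15.2 CPM, and Thbs4, encoding a thrombospondin, 2131 and 565 CPM.

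Of 11 genes of the Wnt list with at least 50 CPM, Wif1 left out as a rule gene, 1 (Nkd2) was higher and 6 (Dkk2, Sfrp1, Sfrp2, Sfrp4, Sfrp5 and Tcf7l2) lower, with Sfrp2 at 22.4 CPM in endoneurial and 440.3 CPM in other injured cells and Sfrp4 at 496 and 1222 CPM, both encoding secreted Frizzled-related proteins. Of 6 neurotrophic ligand genes, 1 was higher and 2 lower. Ptn, encoding the heparin-binding growth factor pleiotrophin, was lower at 65.9 CPM in endoneurial and 901 CPM in other injured cells, and so was Igf2 at 65.4 and 486 CPM. Among 27 receptor genes, 6 were higher and 6 lower, beside 6.05% and 9.08% of all genes. Osmr, the oncostatin M receptor gene, had 324 and 82.9 CPM, Pdgfra, a PDGF receptor gene of fibroblasts, 450.5 and 198 CPM, and Ntrk2, encoding the neurotrophin receptor TrkB, 169 and 52.8 CPM. Pdgfra was within 2-fold in the FACS library (log2 0.25).

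In the beads library, cell division transcripts were lower in the endoneurial cells than in the other injured cells as a whole. Of 14 cell division genes with at least 50 CPM, 0 were higher and 13 lower in endoneurial than in other injured cells. Top2a, encoding the DNA topoisomerase of mitotic chromosomes, had 37.4 and 163 CPM, and Mki67, encoding the proliferation antigen Ki-67, 15.6 and 85.9 CPM. The sum of 25 core division genes was 257 CPM (95% interval 234 to 281) in endoneurial cells, 1273 CPM in differentiating, 1391 CPM in perineurial and 78.5 CPM in epineurial cells. In the FACS library the sum was 413 CPM in endoneurial and 566 CPM in other mesenchymal cells, with Mki67 at log2 -0.83. Of 9 division genes with at least 50 CPM there, 0 were higher and 1 lower, beside 4.81% and 5.38% of all genes tested in FACS. Below that limit Cenpf and Ube2c, genes of the mitotic apparatus, stood at log2 0.95 and 0.69, above the other cells. At least 3 of these UMIs were held by 14 of 179 FACS endoneurial cells (7.82%) and 51 of 642 others (7.94%), not thinned, at median depths of 6102 and 3630.5 UMIs. Uninjured endoneurial cells had 21 CPM.

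Set beside each other subclass, Trf had 2823 CPM in endoneurial, 27.9 CPM in differentiating, 109 CPM in epineurial and 87.5 CPM in perineurial cells. Ccl9 had 25.6, 37.5 and 20.8 CPM in the same 3 subclasses, and Col28a1 5.24, 34.1 and 27.1 CPM. Apod itself was highest outside the endoneurial cells in the perineurial pool, at 22499.8 CPM, against 1316 CPM in differentiating and 6538 CPM in epineurial cells. Dpt was highest in the epineurial pool at 2499 CPM, and Tnmd in the differentiating pool at 87.9 CPM.

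With every cell thinned to 1000 UMIs, 274 endoneurial cells (63 shallower ones left out) and 700 other injured cells (252 left out) could be compared by detection. Ccl2 was detected in 65.3% of endoneurial and 6.86% of other injured cells, or 76% and 16.8% before thinning. Ccl9 was detected in 55.5% and 2.43%, or 72.7% and 8.09% before thinning. Col28a1 was found in 137 of 274 endoneurial cells and 1.71% of other injured cells, or 72.1% and 4.31% before thinning. For comparison, B cells of the library held a Ccl2 UMI in 2.30%, a Ccl9 UMI in 2.30% and a Col28a1 UMI in 1.02% of cells. Their median was 762 UMIs, unthinned, against 4965 UMIs in endoneurial cells, and free RNA was not measured.

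Injured endoneurial cells were next set against uninjured endoneurial cells chosen by the same rule. The rule gene Wif1 was detected in 291 of 337 injured but 8 of 307 uninjured endoneurial cells. The markers thus did not weigh alike in choosing the 2 pools, and the part of this in the ratios was not tested. Of 3759 genes, 412 (11.0%) were at least 2-fold higher after injury and 343 (9.12%) at least 2-fold lower. Markers of other cell types moved as well: those of macrophages and dendritic cells reached 341 CPM in the injured pool and 40.8 CPM in the uninjured one, with 0 and 5 of the 10 listed in the table undetected. Schwann cell markers stood at 63.7 CPM in the injured and 370 CPM in the uninjured pool (0 of 8 undetected in both), and erythroid markers at 119 and 1223 CPM. With every cell above 0.2% of such UMIs left out, 416 genes were higher and 333 lower. The part of these markers in single genes was otherwise not tested.

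The genes with the highest ratios after injury encoded kininogens, retinoid enzymes, acute-phase proteins and a protease inhibitor. Timp1, encoding an inhibitor of matrix metalloproteinases, had 894 CPM in injured, against 18.7 CPM in uninjured endoneurial cells (log2 5.58, 95% interval 4.88 to 6.39). FACS endoneurial cells had 812 CPM. Aldh1a3, encoding an enzyme that makes retinoic acid, had 333 CPM in injured, 767 CPM in FACS and 2.33 CPM in uninjured endoneurial cells (log2 7.16, 95% interval 5.30 to 10.21, on 2 uninjured UMIs), and its relative Aldh1a2 109, 72 and 2.33 CPM. Aldh1a1, a further enzyme of that family, ran the other way, with 19.6 CPM in injured, 15.8 CPM in FACS and 167 CPM in uninjured endoneurial cells.

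Kng2, encoding a kininogen, the precursor of bradykinin, had 595 CPM in injured, against 0 UMIs in uninjured endoneurial cells, at least 169.9-fold higher against 3 UMIs in the pool. Kng1 had 244 CPM and 0 UMIs, at least 69.8-fold higher. Outside the endoneurial cells, Kng2 had 48.0 CPM in other uninjured and 82.9 CPM in other injured cells, and Kng1 1.52 and 11.5 CPM. The 2 genes lie near each other, at chr16:22985854-23029482 (Kng2) and chr16:23057865-23082078 (Kng1) on GRCm38 in GENCODE vM21, and are near-identical copies whose reads can be exchanged, so the split between them is uncertain. Saa3, encoding an acute-phase serum amyloid protein, had 386 CPM in injured, 132 CPM in FACS and 0 UMIs in uninjured endoneurial cells, at least 110.2-fold higher in the injured beads library. Cxcl5, encoding a neutrophil attractant, had 271 CPM in injured, 86 CPM in FACS and 4.67 CPM in uninjured endoneurial cells, and was within 2-fold in other injured cells (146 CPM). Chl1, encoding a neural cell adhesion molecule, had 320.2 CPM in injured, 116 CPM in FACS and 4.67 CPM in uninjured endoneurial cells.

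The other genes of the 12 highest were Fibin, Upp1, Slc7a8 and Hs6st2. Fibin, which encodes a secreted fin bud initiation factor homolog, had 78.2 CPM in injured, against 1.17 CPM in uninjured endoneurial cells. Upp1, encoding uridine phosphorylase, had 53.7 and 1.17 CPM, and Slc7a8, encoding an amino acid transporter, 50.3 and 1.17 CPM. Hs6st2, encoding a heparan sulfate sulfotransferase, had 88.3 and 2.33 CPM. Each rested on 1 or 2 UMIs in uninjured endoneurial cells. FACS endoneurial cells had 97.4 CPM of Fibin, 46.5 of Upp1, 34.2 of Slc7a8 and 40.4 of Hs6st2. Against other injured cells of the beads library, Fibin was lower (log2 -1.34), while Upp1 and Slc7a8 were higher (log2 3.50 and 2.31). In the FACS library Fibin stood at log2 -0.67, Upp1 at 4.28 and Slc7a8 at 1.47. Among the rule genes, Wif1 had 2189 CPM in injured, 1140.3 CPM in FACS and 16.3 CPM in uninjured endoneurial cells, while Osr2 was lower at 206, 241 and 788 CPM. The rule chose cells on these genes within each library, so their levels are given as a description.

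Among the 12 genes lowest after injury, 7 described here belong to cholesterol synthesis, its control or its transport in the cell. Cells make cholesterol from acetyl-CoA through the mevalonate pathway, and the SREBP factors switch on these genes when sterols are scarce. SREBP is known to bind beside the factor NF-Y, which reads the letters CCAAT. Promoter sequence was therefore read for the 5 named genes of the pathway that have a RefSeq promoter entry, Hmgcs1, Insig1, Sc4mol (now Msmo1), Cyp51 and Sc5d. Printed as examples are 3 of them, each up to 250 bases before the RefSeq start on GRCm38.p6, with bases inside the annotated GENCODE gene left off. Capitals mark the NF-Y motif, which in these windows lies on the opposite strand and so reads ATTGG as printed. In Hmgcs1 they also mark the longer motif TCACNCCAC, which resembles a sterol regulatory element. Both were searched on both strands.
Hmgcs1: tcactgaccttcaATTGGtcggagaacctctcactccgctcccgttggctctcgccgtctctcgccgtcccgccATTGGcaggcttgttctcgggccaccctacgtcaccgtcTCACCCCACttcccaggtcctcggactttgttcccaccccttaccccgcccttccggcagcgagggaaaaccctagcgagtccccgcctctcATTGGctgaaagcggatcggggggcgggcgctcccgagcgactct
Insig1: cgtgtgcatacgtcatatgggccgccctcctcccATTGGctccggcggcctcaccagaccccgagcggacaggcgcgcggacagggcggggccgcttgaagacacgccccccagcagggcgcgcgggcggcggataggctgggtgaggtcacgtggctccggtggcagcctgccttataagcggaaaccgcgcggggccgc
Sc5d: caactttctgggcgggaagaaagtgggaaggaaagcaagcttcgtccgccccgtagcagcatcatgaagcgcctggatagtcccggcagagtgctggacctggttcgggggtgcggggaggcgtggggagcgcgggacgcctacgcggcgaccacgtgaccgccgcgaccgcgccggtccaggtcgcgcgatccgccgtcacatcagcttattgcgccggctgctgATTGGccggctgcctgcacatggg
They lie at chr13:119690101-119690350 (plus strand), chr5:28071162-28071362 (plus strand) and chr9:42264301-42264550 (minus strand).

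Among the 18 sterol and lipid genes lower after injury, 10 have an entry, and 8 of these hold CCAAT in the 250 bases before a start, including all 5 named ones. It was found for 9 of the 16 other genes of the list with an entry, and for 37.5% of all 27025 genes of the table. These 16 were not called lower, but they include the rule gene Apod, and not all of them reached 50 CPM. TCACNCCAC was found in Hmgcs1 alone among the 10, in 0 of the 16, and for 1.22% of all genes. The 2 motifs did not overlap in the sequences shown. A match describes the letters and is no evidence of binding.

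Hmgcs1, encoding the synthase at the entry of the mevalonate pathway, had 19 CPM in injured, 24.6 CPM in FACS and 419 CPM in uninjured endoneurial cells (log2 -4.46, 95% interval -5.01 to -3.95). Insig1, whose product holds SREBP in the endoplasmic reticulum and is itself an SREBP target, had 3.35, 7.02 and 176 CPM. The sterol-modifying enzyme genes Sc4mol, at 9.50, 18.4 and 316 CPM, and Cyp51, at 7.27, 7.02 and 157 CPM, were lower after injury in both libraries. Sc5d, encoding a late desaturase of the pathway, had 5.59, 6.14 and 118 CPM. Fdps, encoding farnesyl diphosphate synthase, had 5.59, 8.78 and 170.3 CPM.

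Stard4, encoding a cholesterol carrier, had 2.24 CPM in injured, against 63 CPM in uninjured endoneurial cells. Of 32 genes of the sterol and lipid transport list with at least 50 CPM, 18 were lower after injury and 4 higher, and the list's median log2 ratio was -2.09, against 0.08 for all genes with at least 10 CPM. Abca1, encoding the pump that exports cholesterol from cells, ran the other way, with 199.5 CPM in injured, 111 CPM in FACS and 7.0 CPM in uninjured endoneurial cells. Apoe, encoding the lipid carrier apolipoprotein E, had 725 CPM in the injured beads library, 2913 CPM in the FACS library and 3083 CPM in uninjured endoneurial cells, so it was lower in the beads library alone. Macrophages also make Apoe, and their markers summed to 1086 CPM in the FACS endoneurial pool.

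The 7 sterol genes described among the 12 lowest were also at least 2-fold lower in the other mesenchymal cells of the injured than of the uninjured library. Hmgcs1 had 41.3 CPM in other injured and 153 CPM in other uninjured cells (log2 -1.89), and Insig1 9.47 and 60.2 CPM (log2 -2.67). In uninjured nerve the endoneurial cells held more than the others, with Hmgcs1 at log2 1.45 and Sc4mol at log2 1.70. After thinning, a Hmgcs1 UMI was found in 1.82% of injured and 26.1% of uninjured endoneurial cells, or 8.90% and 47.2% before thinning. With every cell above 0.2% of other cell types' marker UMIs left out, the injured against uninjured ratios were log2 -4.44 for Hmgcs1, -5.67 for Insig1 and -4.38 for Sc5d. Schwann cells also make cholesterol, and their markers were higher in the uninjured pool. Their part in these ratios was not tested in any other way.

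Also among the 12 lowest were Myoc, encoding the secreted protein myocilin, at 9.50 CPM in injured, against 732 CPM in uninjured endoneurial cells, Crispld2, encoding a secreted cysteine-rich protein, at 144 and 2558 CPM, and Angptl7, encoding an angiopoietin-like protein, at 239 and 4195 CPM. FACS endoneurial cells had 9.66, 99.2 and 542 CPM of the 3. Crispld2 and Angptl7 were still higher in endoneurial than in other injured cells, at log2 1.29 and 1.97.

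Several lists held more higher than lower genes after injury. List counts against uninjured endoneurial cells stand beside 11.0% of all genes higher and 9.12% lower. Of 18 acute-phase and innate defence genes, 12 were higher and 2 lower (median log2 1.75), with Ptx3 at 519.8 CPM in injured, against 42 CPM in uninjured endoneurial cells and Lbp, encoding the lipopolysaccharide-binding protein, at 747 and 78.1 CPM. The 2 lower genes were the metallothioneins Mt1, at 303 and 1438 CPM, and Mt2. Of 15 chemokine and cytokine genes, 8 were higher and 1, Il33, lower. Ccl2 had 3164 CPM in injured, 1599 CPM in FACS and 184 CPM in uninjured endoneurial cells, whereas Ccl11 (1697, 1314 and 1718 CPM) and Cxcl1 (1680.0, 1211 and 1754 CPM) stayed within 2-fold.

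Of 6 neurotrophic ligand genes, 5 were higher and 0 lower. Igf1, encoding a growth and survival factor of nerve, had 2336 CPM in injured, 2171 CPM in FACS and 406 CPM in uninjured endoneurial cells, and Mdk, encoding midkine, 484, 660.1 and 82.8 CPM. Il6 had 124 CPM in injured, 55.3 CPM in FACS and 21 CPM in uninjured endoneurial cells. Ptn, low beside the other injured cells, was still above its uninjured endoneurial level, at 65.9 and 16.3 CPM. Of 10 complement genes, 4 were higher and 0 lower, with C3, encoding the central complement component, at 743 and 101 CPM.

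Matrix genes differed in both directions after injury. Of 37 matricellular and other matrix genes, 16 were higher and 7 lower, beside 11.0% and 9.12% of all genes. Fbn2, encoding fibrillin-2, a microfibril protein of developing tissue, had 492 CPM in injured, 379 CPM in FACS and 14 CPM in uninjured endoneurial cells. Ctgf, encoding connective tissue growth factor, had 196, 377 and 10.5 CPM, and Spp1, encoding osteopontin, 1599.5, 2113 and 189 CPM. Spp1 is also made by macrophages, whose markers were higher in the injured pools. Vit, encoding vitrin, had 34.1, 36 and 582 CPM, and Smoc2, encoding a calcium-binding matrix protein, 1395, 1182 and 5881 CPM. Collagen processing gave 5 higher and 0 lower genes of 20, with Lox, the collagen cross-linking enzyme gene, at 123 and 16.3 CPM. Of 27 receptor genes, 9 were higher and 5 lower, with Il1r1, the interleukin-1 receptor gene, at 210.1 and 18.7 CPM, Osmr at 324 and 40.8 CPM, and Gfra1, a GDNF receptor gene, at 86.6 and 369.7 CPM.

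Genes of quiescent fibroblasts and immediate early genes were mostly lower after injury. Of 22 quiescent fibroblast genes, 12 were lower and 3 higher (median log2 -0.96), with Gsn, encoding the actin-severing protein gelsolin, at 959.6 CPM in injured, against 9887 CPM in uninjured endoneurial cells and Tsc22d3, a glucocorticoid-induced gene, at 49.2 and 366 CPM. Among 22 immediate early and dissociation-related genes, 17 had lower and 2 higher levels (median log2 -1.33). Fos had 2612 CPM in injured, 3024 CPM in FACS and 10236 CPM in uninjured endoneurial cells. Within the injured beads library these genes leaned the other way between cells. There 5 of 20 were higher and 0 lower in endoneurial than in other injured cells, or 13 higher with DESeq2 size factors. These factors also raised the number of all genes called higher, as given above. Nr4a1 had 494 and 183 CPM. In the FACS library 0 of 21 were higher and 0 lower, with or without size factors, and Nr4a1 stood at log2 0.82. In uninjured nerve Fos was at 10236 CPM in endoneurial and 3766 CPM in other cells. These genes respond to dissociation, and injury cannot be told apart from the handling of the injured and uninjured libraries.

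**Figure D5:**
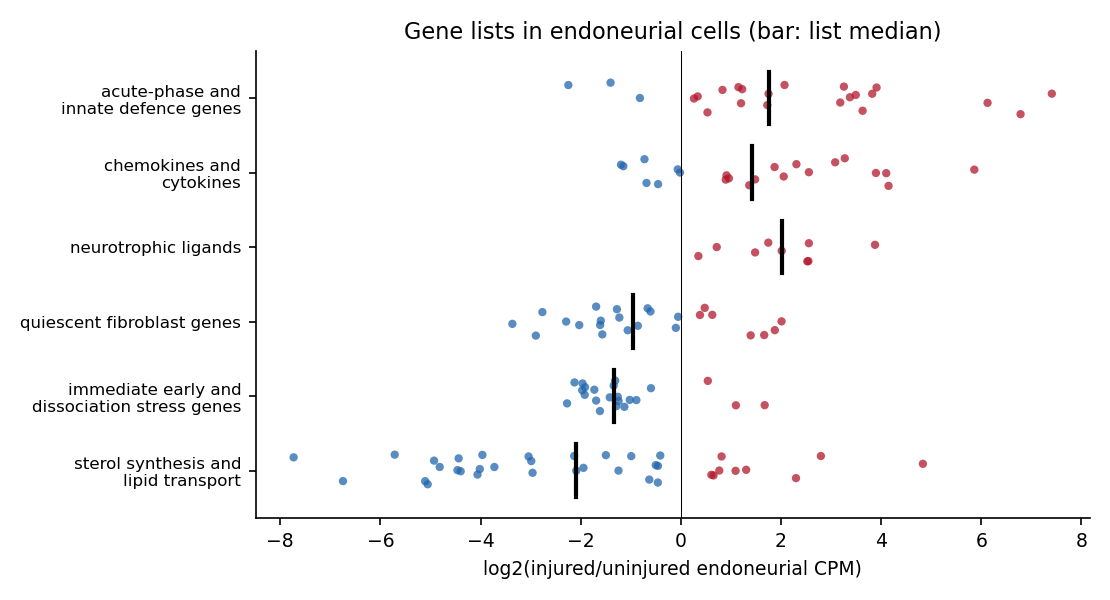
Log2 ratio of injured to uninjured endoneurial CPM (horizontal axis) of each gene with at least 10 CPM in 6 gene lists (points, red above 0 and blue below), with the list median (bar). Medians run from 2.01 for neurotrophic ligands to -2.09 for sterol synthesis and lipid transport.

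The endoneurial cells also varied among themselves. In the 248 of them with at least 2000 UMIs, thinned to that number, the ratio of variance to mean (Fano factor) had a median of 1.17 over 1539 genes. Apod reached 52.8, and among genes outside the rule the highest was H19, an imprinted noncoding RNA gene, at 22.2. A H19 UMI was found in 106 of 248 cells and up to 64 in 1 cell. Saa3 reached 11.8, with UMIs in 31 cells and up to 23 in 1 cell, and Mmp3, encoding the protease stromelysin-1, 7.42 with UMIs in 22 cells. Thus Saa3 and Mmp3 came from few of the cells, whereas Ccl2 (Fano factor 8.13) was detected in 189 cells and Trf (7.93) in 162.

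Co-detection was described for Wif1, Saa3 and H19, chosen after their values were seen. Of the 248 cells, 208 held a Wif1 UMI and 40 did not. Ccl9 was found in 78.8% of cells with Wif1 and 32.5% of cells without it, Trf in 71.6% and 32.5%, and Matn4 in 87 of 208 and 4 of 40 cells. Mest, a marker of the differentiating set, was found in 13.5% of cells with Wif1 and 37.5% without it, and Cilp, encoding a cartilage matrix protein, in 7 of 208 and 8 of 40 cells. Cells with Wif1 averaged 256 Apod UMIs, against 120.1 in cells without it. Since both Wif1 and Mest are in the rule, this contrast describes how the rule admits cells.

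Of the 31 cells with a Saa3 UMI, 8 held Mmp3, 10 held Hp, which encodes the acute-phase haptoglobin, and 5 held Il6. Of the 217 cells without Saa3, 14 held Mmp3, 20 Hp and 18 Il6. S100a8, a neutrophil marker, was found in 1 of 31 cells with Saa3 and 12 of 217 without. Of the macrophage and dendritic cell markers, Cd74 was found in 5 of 31 and 18 of 217 cells (mean 0.548 and 0.101 UMIs) and Lyz2 in 5 of 31 and 52 of 217 cells (mean 0.645 and 0.332 UMIs), and their part in the Saa3 contrast was not tested. Of the 106 cells with H19, 12 held Igf2, its imprinted neighbour, and 59 held Trf, against 5 and 103 of the 142 cells without H19.

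The 93 endoneurial cells nearest the limits of the rule (margin or score below 0.5) were set beside the clearest ones. Ccl9 had 1345 CPM in them and 1735 CPM in the 162 cells with a margin of at least 1, against 33.8 CPM in other injured cells. Trf had 2153 and 3160 CPM, and Dpt 86.0 and 18.4 CPM, against 1159 CPM of Dpt in other injured cells. The near cells were shallower, with a median of 2140 UMIs against 6655.5 in the clear ones.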

How the data were processed

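The deposited values are whole-number UMI counts, not normalized, as the values show. Reads were placed on mm10, per the submitters' processing notes. The sources used here do not name the aligner or counter, nor how mesenchymal cells were predicted. All 1289 barcodes of the injured mesenchymal table were found in the beads table with 0 differing counts. There were 4300 barcodes (10859939 UMIs) with beads, 2000 (7122377 UMIs) by FACS and 880 (2169121 UMIs) from uninjured nerve. The FACS table lacked rows for 2614 genes of the beads table, which were given no value there. Uninjured values of genes without a row there were set to 0.

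Counts were scaled to 10000 per cell, log1p-transformed and z-scored per gene within each table, and scores were means over the marker sets. FACS mesenchymal cells were those whose mesenchymal markers scored above 0 and above every other cell type list. Each pool's UMIs were added up and given as CPM with exact Poisson intervals, ratios with exact conditional binomial intervals and shares with exact Clopper-Pearson intervals (95%). A pool at 0 was taken at 3 UMIs. Named genes are the 15 highest and 10 lowest against other injured cells and the 12 highest and 12 lowest against uninjured endoneurial cells, with at least 2-fold and 50 CPM in the higher pool. Excluded were rule genes, other cell types' markers and mitochondrial, ribosomal, haemoglobin and predicted genes. From the 29 gene lists, genes past 2-fold and extreme genes could be named, and a few other genes are given for contrast, chosen after their values were seen. A few genes that this rule names are not reported here. List medians are over genes with at least 10 CPM. The marker sets, the lists and the rule were chosen with earlier results of these data known. No replicates exist, so no count model was fitted. The procedure was tested on simulated counts. Tools were Python 3.11.15, numpy 2.4.6, scipy 1.17.1, pandas 2.3.3 and R 4.3.3, with edgeR 4.0.16 (TMM) and DESeq2 1.42.0 (size factors) for 2 other scalings.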

Additional observations from a re-analysis of the deposited data

How the results depend on the processing

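The number of endoneurial cells was 331 to 349 with 1 marker left out of the set, 313 with a margin of 0.25, 282 of the cells with at least 500 genes, and 270 of 974 cells thinned to 1000 UMIs. Against other injured cells, DESeq2 size factors gave 236 lower genes and TMM factors 237, in place of 372. A floor of 10 CPM gave 514 higher and 1211 lower genes against other injured cells, 1185 and 960 against uninjured endoneurial cells, and 472 and 774 in the FACS library. Leaving out every cell with a UMI of another cell type's marker kept 45 endoneurial and 194 other injured cells, with 623 higher and 903 lower genes, and 45 injured and 32 uninjured endoneurial cells, with 845 and 1064. Fewer cells give each gene fewer UMIs in these pools. Other alternatives moved no count by over 1.5 times. They included 3 added after the data were seen: totals without Apod, cells above 0.2% of other markers left out, and cells above 10000 UMIs left out (243 higher and 340 lower against other injured cells). No named gene changed direction, but some came within 2-fold under at least 1 alternative. At their weakest, P4ha3 and C1qtnf3 stood at log2 -0.29 and -0.79 against other injured cells. Slc7a8 and Sc5d stood at log2 0.38 and -0.77 against uninjured endoneurial cells. No paired analysis was possible because each group is 1 library. No replicate could be left out, and genes with few UMIs, such as the sterol genes after injury, are measured with wide intervals.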
